A study of Mus musculus with 6 samples.

Results

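The PPAR, RXR and LXR nuclear receptors and the PGC1 coactivators made up 10 of the 52636 genes in the deposited table: Ppara, Ppard, Pparg, Rxra, Rxrb, Rxrg, Nr1h2 (LXR beta), Nr1h3 (LXR alpha), Ppargc1a and Ppargc1b. They were chosen by symbol, as lipid-sensing receptors and the coactivators named after them. No measured value was used in that rule, though earlier results of these data were known. The data were RNA-seq counts from mouse embryoid bodies (EBs), the aggregates in which embryonic stem cells (ESCs) begin to differentiate. WT EBs came from the parental E14 line, and Tnfaip2-/- EBs came from 1 clone of it that carries a premature stop in exon 2 of Tnfaip2. For both genotypes, ESCs grown with LIF were hung in drops for 3 days, and the EBs were then plated on gelatin in MEF medium for 3 days of differentiation. Each genotype had 3 replicates, and the comparison asked which transcripts differ when Tnfaip2 is disrupted.

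PPARs are transcription factors that are switched on by fatty acids and their derivatives, and LXRs respond in the same way to oxysterols. Both bind DNA as heterodimers with an RXR, which itself binds retinoids, and RXRs are also the partners of the retinoic acid, thyroid hormone and vitamin D receptors. PPAR targets serve fatty acid uptake, storage and oxidation, LXR targets serve cholesterol efflux and lipid synthesis, and PGC1 proteins are coactivators best known for raising mitochondrial gene expression. Pparg is the central regulator of adipocyte formation.

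Tnfaip2 (ENSMUSG00000021281, chromosome 12, 111442469 to 111455018 of GRCm38, forward strand) had 7, 4 and 7 counts in WT samples and 0, 2 and 2 counts in Tnfaip2-/- samples. The edited gene was close to undetected in both genotypes, all Tnfaip2-/- samples lay below all WT samples, and the edit itself cannot be read from gene counts. Total counts were 22987433, 22489903 and 23804489 in WT samples and 22480962, 21765931 and 21986960 in Tnfaip2-/- samples. Levels are given as counts per 1000000 (CPM) after normalization, as mean ± SD over 3 replicates. At this depth 3 counts, taken as the floor for counting error, correspond to 0.128 to 0.137 CPM. The authors call the 3 replicates of a genotype biological replicates, and the labels do not say whether they are separate cultures. The replicates of a genotype come from 1 line, so SDs, intervals and p-values measure the spread between replicates of a line. A difference between genotypes and a difference between clones cannot be told apart.

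Of the 10 genes, 7 passed the filter on low counts, and Ppara, Pparg and Ppargc1a did not. All 7 passed edgeR's quasi-likelihood test at an adjusted p of 0.05, as did 67.7% of all 17849 genes tested. Ppard, Rxra and Nr1h3 were higher in Tnfaip2-/- EBs, against 34.0% of all tested genes, and Rxrb, Rxrg, Nr1h2 and Ppargc1b were lower, against 33.7%. Rxrg and Ppargc1b, 2 of the 7, changed at least 2-fold, against 12.0% of all tested genes. Both were lower, as were 4.51% of all tested genes at that size, and none of the 10 was among the 7.46% that were at least 2-fold higher. The CPM ranges of the groups did not overlap for 6 of the 7, the exception being Ppard, as for 69.4% of all tested genes. The median log2 fold change of the 7 was -0.08, beside 0.003 over all tested genes.

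**Figure D1:**
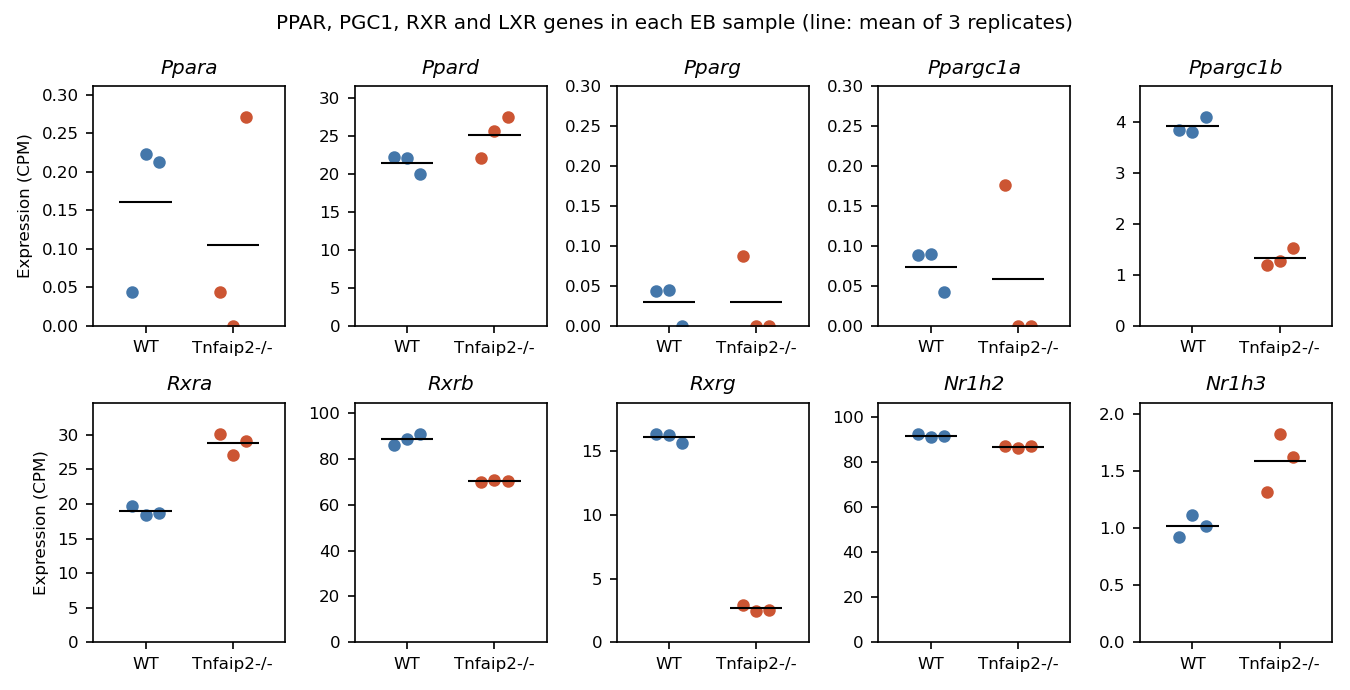
Expression in CPM (vertical axes, each from 0) of the 10 genes in the 3 WT and 3 Tnfaip2-/- EB samples, 1 point a sample, with a line at each mean. Rxrg fell from 16.1 to 2.66 CPM and Ppargc1b from 3.91 to 1.33 CPM, while Ppara, Pparg and Ppargc1a stayed below 0.3 CPM in all samples.

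RXRs were the receptors whose make-up differed most. Rxrg (ENSMUSG00000015843, chromosome 1, 167598384 to 167639623 of GRCm38, forward strand) encodes RXR gamma, the member with the most restricted expression in the animal, found mainly in muscle and parts of the nervous system. Its counts were 371, 364 and 368 in WT samples and 67, 54 and 57 in Tnfaip2-/- samples, or 16.4, 16.3 and 15.7 CPM against 2.95, 2.47 and 2.57 CPM. Every WT sample lay far above every Tnfaip2-/- sample, with little spread inside either group. The mean fell from 16.1 ± 0.379 to 2.66 ± 0.254 CPM (SD, n = 3), 6.03-fold lower, a log2 fold change of -2.59 (95% confidence interval -2.79 to -2.39, edgeR quasi-likelihood adjusted p = 6.21e-27). Of the 17849 tested genes, 102 had a log2 fold change at or below that of Rxrg, itself included. In bulk RNA, fewer cells that express a gene and less RNA per cell cannot be told apart, here or for the genes that follow.

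Rxra (ENSMUSG00000015846, chromosome 2, 27676440 to 27762957, forward strand) encodes RXR alpha, the partner most used in liver and other epithelia. It had 19.7, 18.4 and 18.7 CPM in WT samples and 30.2, 27.1 and 29.1 CPM in Tnfaip2-/- samples. All Tnfaip2-/- samples lay above all WT samples. The mean rose from 18.9 ± 0.655 to 28.8 ± 1.54 CPM (SD, n = 3), 1.52-fold, a log2 fold change of 0.61 (95% confidence interval 0.49 to 0.72, edgeR quasi-likelihood adjusted p = 6.22e-13).

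Rxrb (ENSMUSG00000039656, chromosome 17, 34031812 to 34038399, forward strand) encodes RXR beta, which is broadly expressed. Its levels were 86.1, 88.4 and 90.9 CPM in WT samples and 69.7, 70.6 and 70.5 CPM in Tnfaip2-/- samples. The groups were again apart, with the Tnfaip2-/- samples low and close together. The log2 fold change was -0.33 (95% confidence interval -0.40 to -0.26, edgeR quasi-likelihood adjusted p = 1.6e-11), so that Rxra moved up while Rxrb and Rxrg moved down.

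Promoter sequences are shown for Rxrg, the RXR gene with the largest change, and for Rxra, the RXR gene that rose. They are the 250 bases before RefSeq start sites (RefSeq, GRCm38.p6), forward strand, 5′ to 3′, with each CG in capitals. Rxra start 1 is chr2:27676951-27677200, past the annotated start of the gene, Rxrg start 1 is chr1:167598112-167598361, and Rxrg start 2, inside the gene, is chr1:167618015-167618264. None of these windows holds an annotated exon.
Rxra start 1: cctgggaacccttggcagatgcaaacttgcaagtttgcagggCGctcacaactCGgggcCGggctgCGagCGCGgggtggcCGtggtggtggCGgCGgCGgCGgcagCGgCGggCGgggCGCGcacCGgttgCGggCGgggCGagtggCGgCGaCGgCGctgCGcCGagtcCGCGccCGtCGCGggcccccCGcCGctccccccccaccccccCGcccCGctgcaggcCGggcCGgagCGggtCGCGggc
Rxrg start 1: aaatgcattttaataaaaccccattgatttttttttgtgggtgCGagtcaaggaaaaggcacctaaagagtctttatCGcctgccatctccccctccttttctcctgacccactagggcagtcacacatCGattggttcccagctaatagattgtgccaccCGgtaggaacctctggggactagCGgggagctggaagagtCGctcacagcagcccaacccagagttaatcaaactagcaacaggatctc
Rxrg start 2: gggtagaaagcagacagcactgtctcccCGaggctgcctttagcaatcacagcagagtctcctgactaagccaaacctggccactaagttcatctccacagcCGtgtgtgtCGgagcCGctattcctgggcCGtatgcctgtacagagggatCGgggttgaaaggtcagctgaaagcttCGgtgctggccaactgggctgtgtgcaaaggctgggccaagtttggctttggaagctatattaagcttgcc

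The Rxra window held 40 CG, and 98.7% of the 32851 windows of the same length in the RefSeq table held fewer. Rxrg start 1 held 6 and start 2 held 7, beside a median of 6 over all windows, with quartiles of 2 and 16. A further start of Rxra, inside the gene, had 1 CG, and the Rxrb windows had 31 and 39. Gene counts do not tell which start was used, and no methylation was measured.

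The windows were also searched on both strands for AGGTCA, the half-site that nuclear receptors of these families recognise. Of the 15 windows found for 9 of the 10 genes, 4 held it, beside 14.0% of all windows: Rxrg start 2 with 1 match, the inner Rxra start with 2, and the first and second Pparg starts with 1 each. A pair of AGGTCA in the same direction with 1 base between, the arrangement bound by PPAR and RXR, was in none of the 15 and in 0.0335% of all windows. With 4 bases between, the arrangement bound by LXR and RXR, it was again in none of the 15 and in 0.0152% of all windows. A match describes letters only, and nothing about binding was measured.

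Levels of different genes can be compared only per length, as CPM per kilobase of exon. On that scale the 3 RXR genes together had 32.4, 32.7 and 33.1 in WT samples and 24.4, 23.8 and 24.2 in Tnfaip2-/- samples. The sum in Tnfaip2-/- EBs was 0.737 of that in WT EBs (0.75 with the longest transcript), and the groups did not overlap. Rxrb was the most abundant RXR in both genotypes, with 68.0% of the sum in WT EBs and 73.4% in Tnfaip2-/- EBs. Rxrg was next in WT EBs, with 22%, 21.6% and 20.6% of the sum, and last in Tnfaip2-/- EBs, with 5.27%, 4.51% and 4.62%. Rxra changed places with it, rising from 11.1%, 10.3% and 10.3% to 22.7%, 20.9% and 22.04%. The shares of Rxra and Rxrg differed by 11.3 and -16.6 percentage points, each with an exact two-sided permutation p = 0.1, the smallest that 3 against 3 samples can give. The share of Rxrb differed by 5.35 points, with the same p.

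**Figure D2:**
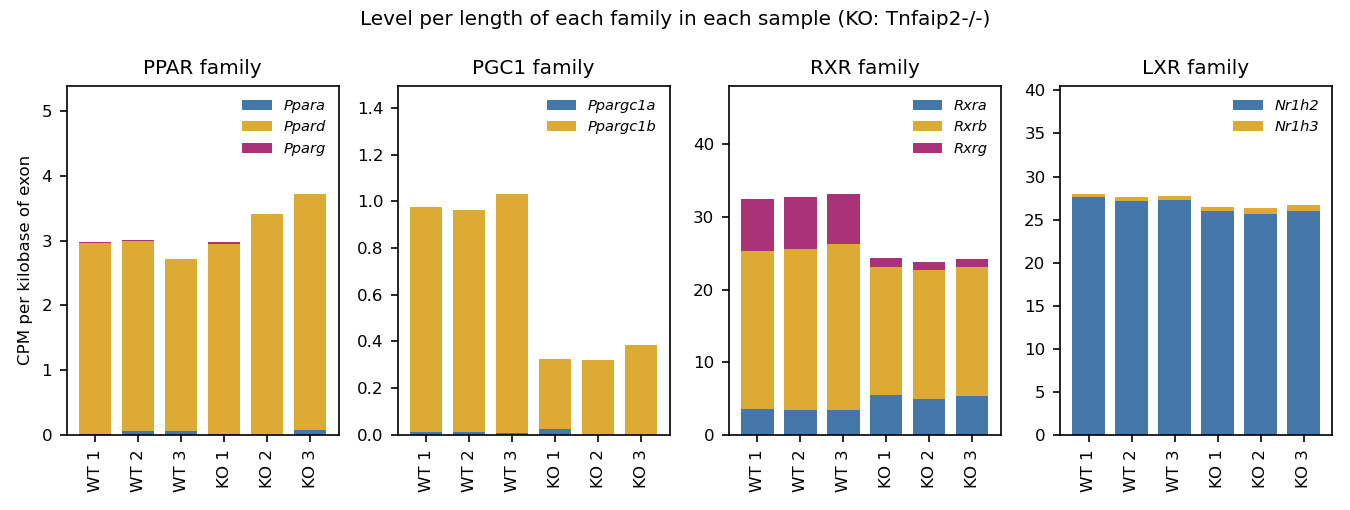
Stacked bars of CPM per kilobase of exon (vertical axes, each from 0) for the PPAR, PGC1, RXR and LXR families in each sample, WT 1 to 3 and Tnfaip2-/- (KO) 1 to 3. The RXR sum fell from 32.7 to 24.1 on average, with the Rxrg share going from 21.4% to 4.80%, while the LXR bars, nearly all Nr1h2, stayed between 26.4 and 27.9.

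Among the PPARs, Ppard was the one expressed. Ppard (ENSMUSG00000002250, chromosome 17, 28232700 to 28301474, forward strand) encodes PPAR delta, the widely expressed member that drives fatty acid oxidation in muscle and other tissues. Its levels were 22.2, 22.1 and 20.0 CPM in WT samples and 22.1, 25.7 and 27.4 CPM in Tnfaip2-/- samples. The groups overlapped, since the lowest Tnfaip2-/- sample lay inside the WT range. The mean was 21.5 ± 1.253 CPM in WT EBs and 25.1 ± 2.71 CPM in Tnfaip2-/- EBs (SD, n = 3), 1.17-fold higher, a log2 fold change of 0.22 (95% confidence interval 0.10 to 0.35, edgeR quasi-likelihood adjusted p = 0.00184). Without Tnfaip2-/- replicate 3, the highest sample, the same edgeR test gave 0.145 with an adjusted p of 0.0604, above the threshold of 0.05.

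Ppara (ENSMUSG00000022383, chromosome 15, 85734983 to 85802819, forward strand), the main PPAR of liver, had 1, 5 and 5 counts in WT samples and 1, 0 and 6 in Tnfaip2-/- samples. Pparg (ENSMUSG00000000440, chromosome 6, 115360951 to 115490399, forward strand) had 1, 1 and 0 counts in WT samples and 2, 0 and 0 in Tnfaip2-/- samples. Both lay around or under the floor in both genotypes with overlapping groups, and no fold is given for them. A fit with no filter on low counts gave adjusted p = 0.534 for Ppara and 0.995 for Pparg in edgeR's quasi-likelihood test. No difference was detected in either gene at these counts. Ppard accounted for 98.2% of the PPAR sum per kilobase in WT EBs and 98.9% in Tnfaip2-/- EBs (exact two-sided permutation p = 0.4).

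The LXR pair was led by Nr1h2 (ENSMUSG00000060601, chromosome 7, 44549616 to 44553951, reverse strand), the broadly expressed LXR beta. It had 92.5, 91.0 and 91.6 CPM in WT samples and 87.2, 86.0 and 87.2 CPM in Tnfaip2-/- samples. The samples of each genotype lay close together and the groups were apart by a small margin. The log2 fold change was -0.08 (95% confidence interval -0.15 to -0.01, edgeR quasi-likelihood adjusted p = 0.0325). Of the tested genes, 15273 had a change at least as large in either direction. The call was lost with DESeq2, with a filter of at least 1 CPM on average, with the replicate number as a block, without WT replicate 1 (log2 fold change -0.08, adjusted p = 0.0601) and without Tnfaip2-/- replicate 2 (-0.07, adjusted p = 0.096), the fits without a sample being by edgeR.

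Nr1h3 (ENSMUSG00000002108, chromosome 2, 91184061 to 91202834, reverse strand), LXR alpha, is the form enriched in liver, macrophages and fat. Its counts were low, 21, 25 and 24 in WT samples and 30, 40 and 36 in Tnfaip2-/- samples, or 0.927, 1.12 and 1.02 CPM against 1.32, 1.83 and 1.62 CPM. All Tnfaip2-/- samples were above all WT samples. The log2 fold change was 0.63 (95% confidence interval 0.19 to 1.08, edgeR quasi-likelihood adjusted p = 0.0103). DESeq2 did not call it (adjusted p = 0.114), and without Tnfaip2-/- replicate 2 the log2 fold change was 0.52 with an adjusted p of 0.0638 in edgeR. Its exons overlap those of Gm13783, on the same strand, over 34 bases. Per kilobase, Nr1h3 was 1.47% of the LXR sum in WT EBs and 2.39% in Tnfaip2-/- EBs (exact two-sided permutation p = 0.1, the smallest possible), so Nr1h2 remained nearly the whole of the family. The LXR sum in Tnfaip2-/- EBs was 0.956 of that in WT EBs.

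Of the coactivators, Ppargc1b (ENSMUSG00000033871, chromosome 18, 61298136 to 61400431, reverse strand) was expressed. It encodes PGC1 beta, a coactivator of mitochondrial and lipid synthesis genes that lacks a DNA-binding domain of its own. Its counts were 87, 85 and 96 in WT samples and 27, 28 and 34 in Tnfaip2-/- samples, or 3.84, 3.80 and 4.09 CPM against 1.19, 1.28 and 1.53 CPM. Every Tnfaip2-/- sample was low and the groups were well apart. The mean fell from 3.91 ± 0.157 to 1.33 ± 0.179 CPM (SD, n = 3), 2.93-fold lower, a log2 fold change of -1.55 (95% confidence interval -1.88 to -1.22, edgeR quasi-likelihood adjusted p = 1.93e-11). Of all tested genes, 352 had a log2 fold change at or below this one.

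Ppargc1a (ENSMUSG00000029167, chromosome 5, 51454250 to 51567726, reverse strand) encodes PGC1 alpha, the form induced by cold, fasting and exercise. It had 2, 2 and 1 counts in WT samples and 4, 0 and 0 in Tnfaip2-/- samples. These are values around the floor with overlapping groups, and the fit with no filter gave an adjusted p of 0.852 in edgeR. The PGC1 sum per kilobase therefore followed Ppargc1b, at 0.346 of the WT value in Tnfaip2-/- EBs.

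Ranked per kilobase, WT EBs had Nr1h2 first (27.3 CPM per kilobase of exon), then Rxrb (22.3), Rxrg (7.01), Rxra (3.47), Ppard (2.86), Ppargc1b (0.979) and Nr1h3 (0.406). In that order the sample ranges of neighbours did not overlap. In Tnfaip2-/- EBs the order was Nr1h2 (25.9), Rxrb (17.7), Rxra (5.27), Ppard (3.34), Rxrg (1.16), Nr1h3 (0.632) and Ppargc1b (0.334), again without overlap between neighbours. Rxrg went from the third place to the fifth and Ppargc1b from the sixth to the seventh. Ppara, Pparg and Ppargc1a were below 0.05 on average in both genotypes, with overlapping ranges. The order of Ppard and Rxra depended on the length used. With the longest transcript in place of all exons, an alternative chosen after the data were seen, Ppard stood above Rxra in WT EBs (5.76 against 3.86) and in Tnfaip2-/- EBs (6.73 against 5.87, with overlapping ranges), and the other places were the same for the genes tested.

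Other nuclear receptors were examined as a list of 41 genes, of which 26 were tested. In Tnfaip2-/- EBs 6 were higher, 15 lower and 5 not called, so 80.8% were called beside 67.7% of all tested genes, and the median log2 fold change was -0.32 beside 0.003. Nr0b1, an atypical receptor that lacks a DNA-binding domain and is expressed in ESCs, fell from 68.5 ± 2.51 to 20.8 ± 0.994 CPM (SD, n = 3), for a log2 fold change of -1.72. Nr1d2, a clock repressor, fell from 48.6 to 23.9 CPM. Nr4a1, an immediate early receptor, rose from 14.6 to 30.0 CPM, and Rora, an activator at the elements that Nr1d2 represses, rose from 7.85 to 15.4 CPM. Esrrb, a factor of the pluripotency network with the highest CPM of the list, went from 225 to 161.5 CPM (log2 fold change -0.48). Per kilobase of exon, Rarg was the most abundant in both genotypes (41.5 and 37.9, beside 37.2 and 26.7 for Esrrb). Counting the 6 receptors described above, 32 nuclear receptors were tested. Of these, 23 had a mean of at least 1 CPM, and Rxrg had the lowest log2 fold change of the 23.

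**Figure D3:**
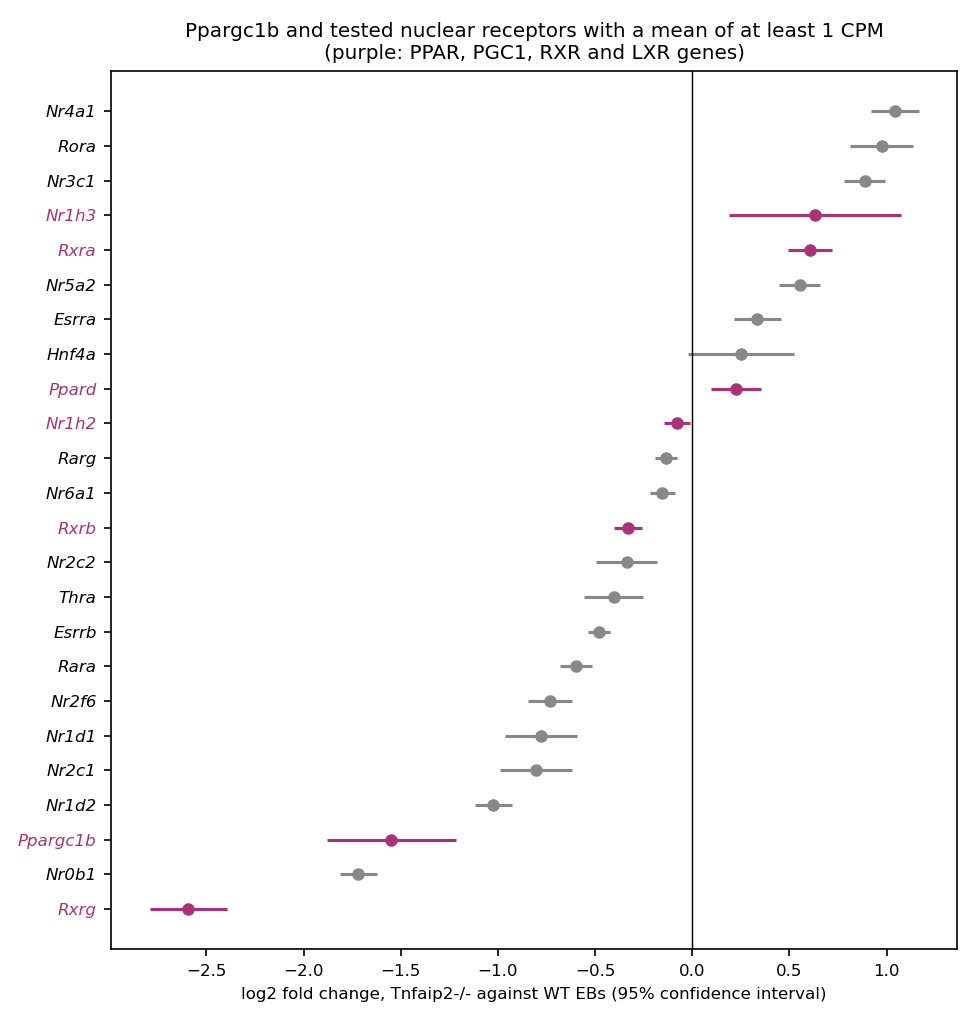
Log2 fold change in Tnfaip2-/- against WT EBs (horizontal axis) with 95% confidence intervals for Ppargc1b and the 23 tested nuclear receptors with a mean of at least 1 CPM, in order of the change, with PPAR, PGC1, RXR and LXR genes in purple. Rxrg lies at -2.59 and Ppargc1b at -1.55, with Nr1h2 at -0.08 and Rxra at 0.61.

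The genes whose pattern over the 6 samples was most like that of Rxrg were sought among 15710 candidates with a mean of at least 1 CPM. Likeness was measured as the root mean square distance of log2 CPM, each gene centred on its own mean. Foxd3, a transcription factor of the epiblast and neural crest, was nearest at 0.0532, with 899, 896 and 884 counts in WT samples and 152, 135 and 130 in Tnfaip2-/- samples. The mitochondrial tRNA gene mt-Tr followed at 0.0748, with 65, 60 and 61 counts against 10, 9 and 10. Sall3, a zinc finger gene, was the third at 0.0884, with 417, 432 and 405 counts against 89, 62 and 65. The search fixes that they share the pattern of Rxrg, high in WT samples and low in Tnfaip2-/- samples.

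The supply of ligands was followed in 33 genes of lipid-binding proteins, fatty acid transport, lipases, eicosanoid synthesis and oxysterol synthesis, of which 24 were tested. There were 9 higher, 12 lower and 3 not called in Tnfaip2-/- EBs, so 87.5% were called beside 67.7% of all tested genes, and the median log2 fold change was -0.23. The largest changes by the naming rule included the carriers of retinoids. Crabp2 and Crabp1, which bind retinoic acid in the cell, fell from 32.5 ± 0.369 to 7.55 ± 0.816 CPM and from 56.2 ± 1.502 to 16.5 ± 2.08 CPM (SD, n = 3), with log2 fold changes of -2.10 and -1.77. Alox15, a lipoxygenase whose products are PPAR ligands, fell from 3.36 to 0.942 CPM. Ptges, a prostaglandin synthase, and Alox5, a lipoxygenase, were the 2 that rose at least 2-fold, against 7.46% of all tested genes. Their log2 fold changes were 1.57 and 1.04. At least 2-fold lower were 6 genes of the list, against 4.51% of all tested genes.

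Receptor coactivators and corepressors changed by small amounts. All 22 genes of that list were tested, with 10 higher, 7 lower and 5 not called (77.3% called, beside 67.7% of all tested genes). Their median log2 fold change was 0.03. Cited2, a coactivator of PPARs that binds p300, was the exception past 2-fold, falling from 85.1 ± 2.69 to 36.6 ± 0.227 CPM (SD, n = 3; log2 fold change -1.22). Carm1, an arginine methyltransferase, fell from 172 to 117 CPM, with 21.1% of its exon bases overlapping Yipf2 on the other strand. Tbl1xr1, a part of the corepressor complex with Ncor1, fell from 88.5 to 63.6 CPM, and Helz2, a PPAR coactivator, rose from 10.96 to 14.5 CPM. Asxl1, a chromatin regulator with the highest CPM of the list, had 195 and 205 CPM (log2 fold change 0.07, adjusted p = 0.0193 in edgeR). Per kilobase of exon, Carm1 was the most abundant in WT EBs (35.5, beside 26.2 for Asxl1). In Tnfaip2-/- EBs it was Asxl1 (27.6). DESeq2 did not call Asxl1 (adjusted p = 0.105), nor did edgeR with no filter on low counts (0.121), with the replicate block (0.0578), without WT replicate 1 (0.0519) or 3 (0.159), or without Tnfaip2-/- replicate 1 (0.0605) or 3 (0.18).

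Partners of PGC1 and regulators of mitochondria numbered 28, with 26 tested. Of these 10 were higher, 11 lower and 5 not called (80.8% called, beside 67.7% of all tested genes), and the median log2 fold change was -0.001. Nrf1 and Tfam, which drive expression of nuclear and mitochondrial genes of respiration, were among the 5 not called, with 72.7 against 72.5 CPM and 101 against 98.7 CPM. Sirt3, Prdm16 and Mybbp1a were the others, and Mybbp1a, a repressor that binds PGC1 alpha, was the most abundant of the list by CPM at 684 and 704. Kat2b, an acetyltransferase, fell from 53.8 to 36.03 CPM. Polrmt, the mitochondrial RNA polymerase, fell from 42.7 to 32.2 CPM, and the AMP kinase subunits Prkab1 and Prkaa2 had log2 fold changes of -0.43 and 0.48. Perm1, a muscle regulator, was the 1 gene changed at least 2-fold, against 12.0% of all tested genes. It went from 0.231 to 1.08 CPM.

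PPAR targets were taken as a list of 44 genes, of which 31 were tested. In Tnfaip2-/- EBs 18 were higher, 9 lower and 4 not called, so 87.1% of the tested genes were called beside 67.7% of all tested genes. The median log2 fold change was 0.21, beside 0.003 over all tested genes. Their summed level was 863, 877 and 880 CPM in WT samples and 875, 878.5 and 868 CPM in Tnfaip2-/- samples, with overlapping groups. Without Ucp2, the gene with the highest CPM, it was 724, 737.5 and 744 CPM against 773, 774 and 767 CPM, higher in Tnfaip2-/- samples. Without the gene next in CPM as well, the groups overlapped again.

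The directions differed within fatty acid oxidation. Cpt1a, the rate-limiting carnitine transferase of the outer mitochondrial membrane, had 70.7, 69.6 and 71.3 CPM in WT samples and 35.9, 35.0 and 36.1 CPM in Tnfaip2-/- samples. Slc25a20, the carrier that moves the acylcarnitines made by Cpt1a across the inner membrane, had 23.0, 22.5 and 24.01 CPM against 49.5, 48.9 and 50.6 CPM. These neighbouring steps moved in opposite directions, with a log2 fold change of -0.98 for Cpt1a (edgeR adjusted p = 1.08e-25) and 1.10 for Slc25a20 (7.83e-25). Pdk4, a kinase that holds back glucose oxidation, rose from 4.05 ± 0.451 to 9.12 ± 0.716 CPM (SD, n = 3), for a log2 fold change of 1.17. Plin5, a lipid droplet protein of oxidative tissues, fell from 1.59 to 0.796 CPM. Ucp2, a mitochondrial carrier with the highest CPM of the list, went from 138 to 103 CPM. The most abundant per kilobase of exon was Fabp3 in both genotypes (44.5 and 70.0, beside 19.7 and 14.7 for Ucp2). Of the exon bases of Fabp3, 19.6% overlap Gm10570 and Zcchc17.

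At least 2-fold higher were 4 of the 31 tested PPAR targets, Pdk4, Slc25a20 and Mgll among them, against 7.46% of all tested genes. None was called at least 2-fold lower, against 4.51% of all tested genes. Plin5 and Cpt1a, both called lower, fell just short of that size, with log2 fold changes of -0.998 and -0.984. Mgll, the lipase that splits monoacylglycerols, had 3, 5 and 3 counts in WT samples and 31, 39 and 34 in Tnfaip2-/- samples. Angptl4, an inhibitor of lipoprotein lipase and a target of all 3 PPARs, had 17.9 ± 1.12 and 17.8 ± 0.277 CPM (SD, n = 3; log2 fold change -0.01, adjusted p = 0.932 in edgeR). Lpl, Ehhadh and Cpt1b were the other targets not called, and 81.4% of the exon bases of Cpt1b overlap Gm44502, so its low counts cannot be read as low expression.

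LXR targets were a list of 25 genes with 20 tested, of which 9 were higher, 7 lower and 4 not called (80.0% called, beside 67.7% of all tested genes). None changed at least 2-fold, against 12.0% of all tested genes, and the median log2 fold change was 0.03. The summed level was 2188, 2196 and 2140.0 CPM in WT samples and 2039, 2028 and 2032 CPM in Tnfaip2-/- samples, so the groups did not overlap. The largest falls in CPM were those of Scd2, from 313 to 222 CPM, and Npc2, from 232 to 178 CPM. With 9 of the 20 tested genes higher, the lower sum does not describe the list as a whole. Abca1, the cholesterol exporter most used as a readout of LXR, had 4.01, 3.44 and 3.75 CPM in WT samples and 3.04, 2.69 and 2.12 CPM in Tnfaip2-/- samples. All Tnfaip2-/- samples were below all WT samples (log2 fold change -0.51, adjusted p = 0.00207 in edgeR). Mylip, the ubiquitin ligase that degrades the LDL receptor, rose from 2.51 ± 0.353 to 4.32 ± 0.584 CPM (SD, n = 3), a direction opposite to that of Abca1. Arl4c, a small GTPase that aids cholesterol export, fell from 45.7 to 24.1 CPM. Abcg1, another exporter, was not called at 4.87 and 5.003 CPM, nor were Mlxipl, Lpcat3 and Apoc1.

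Fasn, fatty acid synthase, had the highest CPM of the list, with 541, 557 and 511.5 CPM in WT samples and 507, 498 and 505 CPM in Tnfaip2-/- samples. The groups were just apart (log2 fold change -0.09, adjusted p = 0.00174 in edgeR). Apoe was the most abundant per kilobase of exon in both genotypes (208 and 196, beside 49.0 and 46.0 for Fasn). Smpdl3a, a phosphodiesterase, went from 0.817 to 1.27 CPM (adjusted p = 0.0186 in edgeR). Its call was lost with DESeq2 (0.159) and, in edgeR, without WT replicate 2 (0.0586) or Tnfaip2-/- replicate 1 (0.0584) or 3 (0.0632). Cyp7a1 had no count in any sample. Apoc2 had none either, but 79.5% of its exon bases overlap Gm44805, so its 0 cannot be read as a lack of expression.

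Regulators that act on Pparg during adipocyte formation made up a list of 21 genes, of which 18 were tested. There were 9 higher, 7 lower and 2 not called, with a median log2 fold change of 0.08, and 88.9% of the tested genes were called beside 67.7% of all tested genes. At least 2-fold higher were 3, and 6 were at least 2-fold lower, against 7.46% and 4.51% of all tested genes. Cebpa, the partner of Pparg in fat cells, had 7, 16 and 19 counts in WT samples and 46, 62 and 72 in Tnfaip2-/- samples. Ebf1, an activator of Pparg, fell from 9.56 ± 0.577 to 2.33 ± 0.540 CPM (SD, n = 3). Dlk1, which holds preadipocytes back, fell from 5.22 to 1.35 CPM, and Klf15, an activator, from 26.6 to 7.56 CPM. Klf2, a repressor of Pparg and the most abundant of the list by CPM, rose from 169 to 334.5 CPM. Activators and repressors were thus found on both sides, while Pparg itself stayed at 0 to 2 counts.

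**Figure D4:**
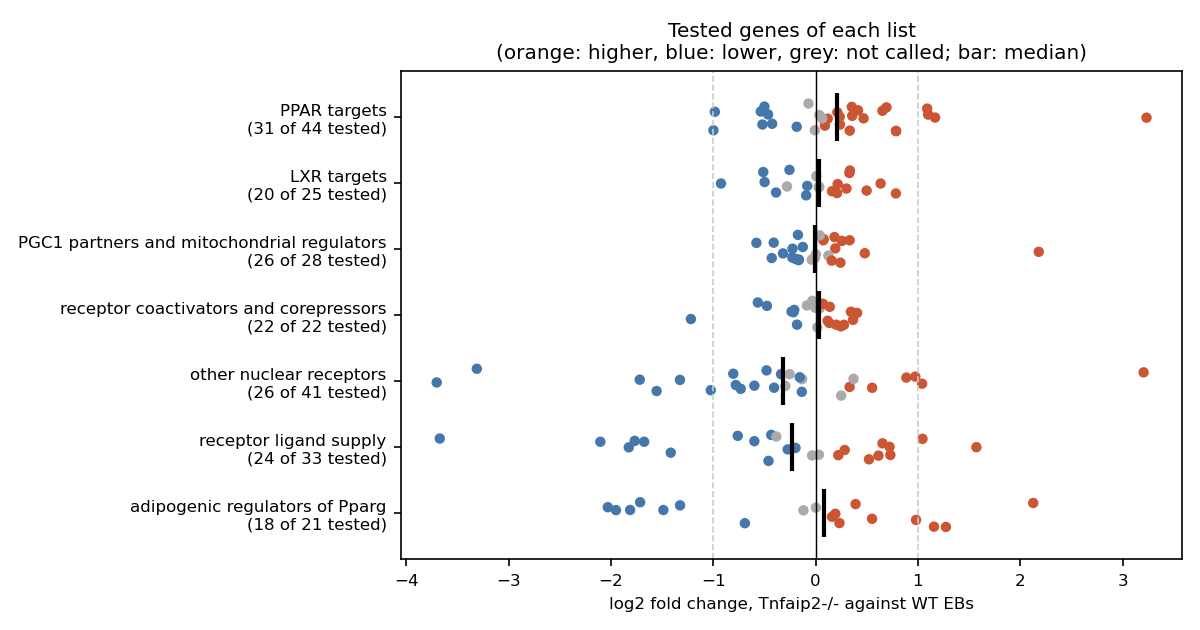
Log2 fold change in Tnfaip2-/- against WT EBs (horizontal axis) of each tested gene in the 7 lists, 1 point a gene (orange higher, blue lower, grey not called), with a bar at each median and dashed lines at 2-fold. The medians run from -0.32 for other nuclear receptors to 0.21 for PPAR targets.

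Markers of cell types were read beside these results, and the most abundant marker of a list is given per kilobase of exon. For the counts of markers that follow, 34.0% of all tested genes were higher and 33.7% lower in Tnfaip2-/- EBs. The label of ESC-derived EBs was met by 8 pluripotency markers, all detected, summing to 3211, 3168 and 3258 CPM in WT samples and 2672, 2657 and 2633 CPM in Tnfaip2-/- samples, with Dppa5a the most abundant. Of these, 3 were higher in Tnfaip2-/- EBs (Sox2, Nanog and Zfp42) and 5 lower. The lower sum rested on Dppa5a and Pou5f1. Without both it was 1462, 1483 and 1493 CPM in WT samples and 1643, 1619 and 1637 CPM in Tnfaip2-/- samples, higher in the latter. Of 6 markers of primed epiblast, 5 were lower and 1, Otx2, was not called. Their sum went from 999.6, 1001 and 996 CPM to 498, 489 and 489 CPM, with Dnmt3b the most abundant in WT EBs and Otx2 in Tnfaip2-/- EBs. Dnmt3b itself fell from 598 to 173 CPM. Without it the sum was 403, 400 and 397.5 CPM in WT samples and 320, 318 and 319 CPM in Tnfaip2-/- samples, a smaller fall.

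Markers of the primitive streak and mesoderm were lower for 7 of 8, Hand1 being higher, and their sum was 90.01, 89.2 and 88.6 CPM in WT samples against 22.6, 20.0 and 24.4 CPM in Tnfaip2-/- samples. Their most abundant gene was T in WT EBs and Eomes in Tnfaip2-/- EBs, and T had 774, 732 and 866 counts against 5, 3 and 1. The call for Tbx6 was lost with DESeq2 (adjusted p = 0.198) and in edgeR without WT replicate 1 (0.194) or 3 (0.107) or Tnfaip2-/- replicate 1 (0.0874) or 2 (0.106). All 5 markers of neural ectoderm were lower, summing to 117, 116 and 109 CPM against 49.4, 48.7 and 48.9 CPM, with Sox1 the most abundant. These sums moved in the direction of Rxrg, Rxrb and Ppargc1b, and the part of cell composition in those results was not tested.

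Of 15 markers of visceral and primitive endoderm, a lipid-transporting tissue, 14 were tested, 3 higher and 8 lower, and Apoc2 was at 0, with the overlap given above. Their sum was 152, 152.5 and 148 CPM in WT samples and 131, 128.5 and 129 CPM in Tnfaip2-/- samples, with Dab2 the most abundant. Foxa2, Ttr, Afp, Apoa1 and Apob, 5 of the 14, were at least 2-fold lower, against 4.51% of all tested genes. Apob and Apoa1, which carry lipids in lipoproteins, fell from 7.96 to 1.85 CPM and from 3.09 to 0.507 CPM, and Ttr, a carrier of thyroid hormone, from 5.05 to 1.30 CPM. Sox7, Rbp4 and Sox17 were the 3 higher, with log2 fold changes of 0.64, 0.88 and 0.45, and 16.8% of the exon bases of Sox17 overlap Gm37587.

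DESeq2 called neither Cubn (adjusted p = 0.137) nor Sox17 (0.117). In edgeR the call of Sox17, higher, was lost without WT replicate 3 (0.18) or Tnfaip2-/- replicate 3 (0.111). The call of Cubn, lower, was lost with a mean of at least 1 CPM (0.0661), with the replicate block (0.0672), without WT replicate 1 (0.0941) or 2 (0.125), and without Tnfaip2-/- replicate 2 (0.12) or 3 (0.0939).

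Of 8 trophoblast markers, 5 were tested, 3 higher and 2 lower, with a sum of 55.9, 54.5 and 52.5 CPM against 199, 193 and 198 CPM. The most abundant gene was Eomes in WT EBs and Tfap2c in Tnfaip2-/- EBs, and the higher sum rested on Tfap2c, which went from 21.7 to 171 CPM. Without Tfap2c the sum was 33.3, 34.0 and 30.6 CPM in WT samples and 26.1, 23.7 and 26.7 CPM in Tnfaip2-/- samples, lower in the latter. Without Eomes as well it was 4.72, 4.02 and 4.04 CPM against 7.31, 6.85 and 6.81 CPM, higher in the latter. The markers thus went both ways. Ascl2 rose from 1.65 to 4.82 CPM and Krt7 from 0.581 to 1.41 CPM, Cdx2 had 42, 37 and 28 counts against 1, 2 and 0, and Elf5, Gata3 and Plac1 did not pass the filter on low counts. Eomes stands in this list and in that of the streak. The part of trophoblast cells in the results above was not tested.

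Adipocyte markers were close to absent. Of 7, Lipe alone was tested and higher, a call lost with DESeq2 (adjusted p = 0.166) and in edgeR without WT replicate 3 (0.164) or Tnfaip2-/- replicate 2 (0.121), and 4 were at or under the floor in all samples. Of the exon bases of Lipe, 15.6% overlap 4732471J01Rik. The summed level of the 7 was 5.69, 5.27 and 4.55 CPM in WT samples and 6.60, 6.99 and 6.27 CPM in Tnfaip2-/- samples, nearly all from Lipe. Of 8 fibroblast markers, 6 were tested, 1 higher and 3 lower, with a sum of 18.9, 20.3 and 18.6 CPM against 16.5, 15.7 and 15.8 CPM. Thy1 was the most abundant in both genotypes, and DESeq2 did not call Pdgfrb, the 1 higher (adjusted p = 0.093).

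**Figure D5:**
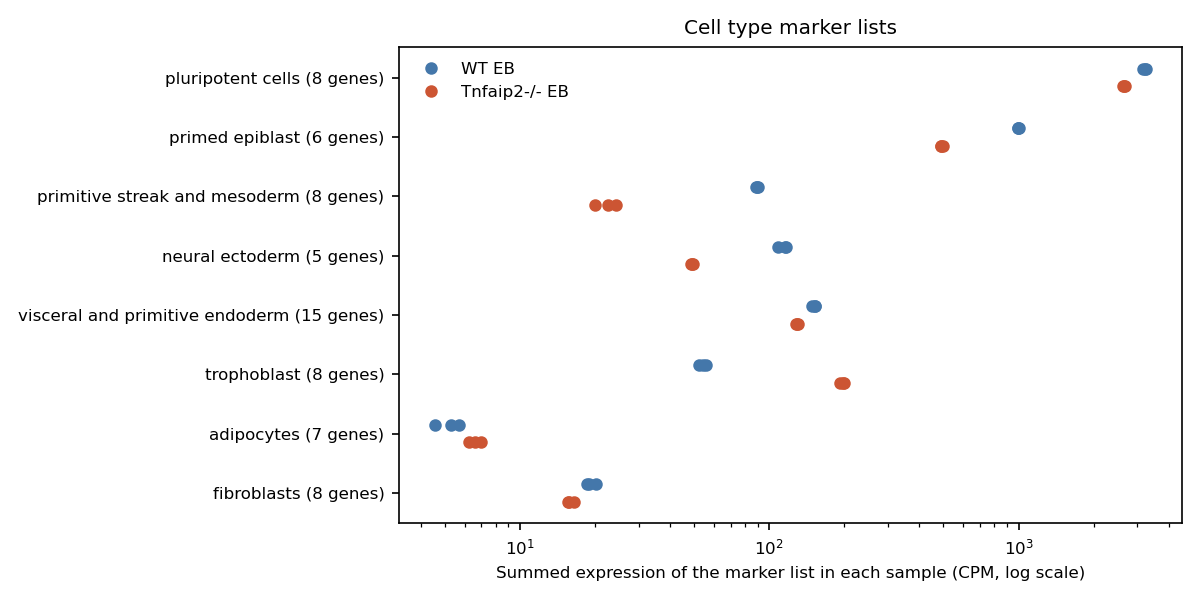
Summed CPM (horizontal axis, log scale) of 8 lists of cell type markers in each of the 3 WT and 3 Tnfaip2-/- EB samples, 1 point a sample. The sums of streak and mesoderm markers were 89.3 and 22.4 CPM on average in WT and Tnfaip2-/- EBs, and those of trophoblast markers 54.3 and 196.5 CPM, or 4.26 and 6.99 CPM without Tfap2c and Eomes.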

How the data were processed

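The values are counts of uniquely mapped reads per gene, deposited by the authors for 6 samples, 3 WT and 3 Tnfaip2-/- EBs, with replicates as the labels number them. The authors trimmed 51-base single-end reads with SGA preprocess 0.10.13, mapped them to GRCm38 with TopHat2 2.1.0 and the Ensembl release 90 annotation, and counted them with featureCounts 1.5.0. The strand setting was not given in the sources read here. Symbols, positions and exon lengths came from GENCODE M21, which matched 52489 of the 52636 gene IDs.

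The analysis used edgeR 4.0.16 under R 4.3.3: genes were kept by filterByExpr (minimum count 10, minimum total 15), normalized by TMM and compared by the robust quasi-likelihood test, with Benjamini-Hochberg adjustment over the 17849 genes tested and a threshold of 0.05. Total counts ran from 21765931 to 23804489, and intervals and the floor of 3 counts cover counting and replicate error only. Shares within a family used CPM per kilobase of exon and an exact permutation test. Alternatives were DESeq2 1.42.0, RLE size factors, no filter, a mean of at least 1 CPM, the legacy form of the fit, the replicate number as a block, each sample left out in turn, and, for values per kilobase, the length of the longest transcript, chosen for levels and sums after the data were seen. The code was tested on simulated data.

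The 10 genes and all lists were chosen with earlier results of these data known. All 10 genes were named. From each list the 4 genes with the largest change were named, among those called with a mean of at least 1 CPM and groups that did not overlap, as was the gene with the highest CPM. The 3 genes nearest to Rxrg in pattern and all markers could also be named. Other genes were named after their values were seen, as parts of a small count or as extremes (Mgll, Angptl4, Lpl, Ehhadh, Cpt1b, Fabp3, Abcg1, Mlxipl, Lpcat3, Apoc1, Apoc2, Apoe, Scd2, Npc2, Cyp7a1, Ptges, Alox5, Perm1, Nrf1, Tfam, Sirt3, Prdm16 and Rarg). Some genes of the lists, in part named by this rule, are counted but not reported here.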

Additional observations from a re-analysis of the deposited data

How the results depend on the processing

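Of 1425 values computed under the alternatives, 1372 stayed on the same side of 0.05, stayed within 1.5 times the first count, or moved by less than the replicate spread. In 38 the direction held and the threshold of 0.05 was no longer passed, no called value changed sign, and 15 values per length moved with the longest transcript, 2 of them shares. Log2 fold changes that were not called changed sign for Gata4 and Col1a1, as did the shares of Pparg, Ppargc1a and Ppargc1b when 1 sample was left out (from 1.61 to -1.13 percentage points for Ppargc1a without Tnfaip2-/- replicate 1). The calls of Rxra, Rxrb, Rxrg and Ppargc1b held under every alternative run. Between 5 and 7 of the 10 genes were called, and between 10261 and 12676 of all genes, with between 1457 and 3126 changed at least 2-fold. The median log2 fold change of the genes tested lay between -0.016 and 0.004 in all settings.

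Nr1h2 was not called with DESeq2 (log2 fold change -0.087, adjusted p = 0.0817) or with a mean of at least 1 CPM (-0.071, adjusted p = 0.0524, edgeR). Nr1h3 was not called with DESeq2 (0.63, adjusted p = 0.114). When each sample was left out in turn, the log2 fold change ranged from 0.145 to 0.306 for Ppard, from -0.092 to -0.072 for Nr1h2 and from 0.524 to 0.75 for Nr1h3. The fits without a sample held fewer samples, and the cause of the other losses was not tested. With the length of the longest transcript, the share of Rxra differed by 8.77 percentage points and that of Rxrg by -13.2.

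With the replicate number as a block, Nr1h2 had a log2 fold change of -0.079 and an adjusted p of 0.0697 in edgeR. Correlations of same-numbered samples after removal of the group means were -0.042, -0.042 and -0.046 (mean -0.043), beside 0.022 for the others, which gave no sign that the numbers pair cultures.

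Counts of Ppara, Pparg and Ppargc1a lay around the floor, and no difference was detected in them. Gene counts do not separate isoforms or starts, 1 clone stands for the genotype, and receptor protein, ligands and activity were not measured.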
